A study of Mus musculus with 12 samples.

Results

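Amino acid transporters were followed in an array study of ABHD5, a co-activator of the lipase ATGL that starts the release of fatty acids from lipid droplets. The members were all genes whose name on the array was Slc1a, Slc3a, Slc7a, Slc36a, Slc38a or Slc43a followed by a number. This rule found 42 of 34787 gene names and 59 of 55681 probes. It gave 7 Slc1, 2 Slc3, 15 Slc7, 4 Slc36, 11 Slc38 and 3 Slc43 genes, of which 29 had 1 probe, 9 had 2 and 4 had 3. Total RNA of 12 mouse cell samples was hybridised to 1-colour arrays, in 4 groups of 3. RAW264.7 knockdown cells, from a mouse macrophage-like line, carried a short hairpin RNA against ABHD5, and RAW264.7 control cells carried the PLKO vector. The CT-26 line comes from a mouse colon carcinoma, and its cells had been primed by the ABHD5-knockdown RAW cells (called knockdown-primed here) or by control RAW cells (control-primed). The labels name 1 hairpin and are silent on the method of priming, on any separation of the tumour cells from the RAW cells, and on whether the samples of a group were separate cultures. A p-value here thus covers no more than the spread between these samples, which may be technical.

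Most amino acids enter cells through a few carrier families. Slc7 light chains work as exchangers and mostly pair with a heavy chain, Slc3a2 or Slc3a1, that brings them to the membrane. The Slc7a11 and Slc3a2 pair takes up cystine in exchange for glutamate and so feeds glutathione synthesis. The Slc7a5 and Slc3a2 pair takes up leucine and other large neutral amino acids, and Slc1a5 takes up glutamine. Macrophages also take up arginine through the cationic Slc7 carriers, for the enzymes that make nitric oxide or ornithine from it.

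Levels are log2 signals relative to the 75th percentile of their array, so a value of 0 is the signal of a fairly bright probe. They can be compared between samples for 1 probe and not between probes. "Well above background" is the scanner software's own flag. A gene was represented by 1 probe, its brightest among those with this flag on every array of some group. It was tested in a comparison where that probe had the flag on each array of at least 1 of the groups compared. Tests used limma over all such genes with Benjamini-Hochberg adjusted p-values, and a gene was called at an adjusted p below 0.05. Of the 42 transporters, 23 had the flag on all 6 RAW264.7 arrays and 25 on all 6 CT-26 arrays. The 9 that reached a test nowhere were Slc1a1, Slc1a3, Slc38a5, Slc38a8, Slc43a1, Slc7a10, Slc7a12, Slc7a13 and Slc7a14, and their levels were not detectable above background on all 3 arrays of any group.

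The RAW264.7 arrays did not share a slide. Control replicates 1 and 2 were on slide 1, where 56.5% and 57.9% of spots were well above background, while all knockdown arrays and control replicate 3 were on slide 2, with 69.0% to 73.0%. Slide 3 held all 6 CT-26 arrays, with 59.3% to 67.0% in knockdown-primed and 68.3% to 77.3% in control-primed samples. Each slide was a scan of its own. Slide 1 held no knockdown array, so a fit with slide as a block and a fit on slide 2 alone give the same RAW264.7 change, 3 knockdown arrays against control replicate 3. The 2 fits are therefore 1 check and not a pair of separate ones, and their p-values take it that this lone control varies like the other arrays. Abhd5 itself had levels of 0.25, 0.23 and 0.39 in knockdown cells, against 1.38, 1.93 and 1.52 in RAW264.7 control cells. It fell by 1.32 on the log2 scale (limma adjusted p = 0.00344). A fit with slide as a block gave -1.23 (adjusted p = 0.0554). All 15 macrophage markers looked at had the flag on every RAW264.7 array. Of 13 epithelial markers, 8 were well above background on all 3 arrays of each CT-26 group, while Cdh1 and Vil1 were so on none. The same flag was on all 3 arrays for 9 of them in RAW264.7 knockdown and for 5 in RAW264.7 control cells, so this count does not set the lines apart.

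In RAW264.7 cells, ABHD5 knockdown went with more transcript of 3 exchanger light chains, Slc7a11, Slc7a8 and Slc7a7, and of Slc43a3. It went with less of Slc1a6 and Slc38a3. Slc36a2 was also called lower, but it was well above background on only 1 control array, so no direction is given for it. The main heavy chain, Slc3a2, and the sodium-coupled Slc38a1 and Slc38a2 did not pass the test. Of 26 transporters tested, 7 were called (26.9%), against 22.8% of all 25306 genes. The 4 higher calls stand beside 7.93% of all genes called higher, and the 3 lower calls beside 14.9% called lower. The transporters' median change was -0.09, and that of all genes tested was -0.304. The scaling moved this background: after centring each array on its median, the median change of all genes was -0.0658, and 5 transporters were called higher and 1 lower. Quantile normalisation gave 4 higher and 1 lower, and the normexp background correction 4 higher and 4 lower. Against control replicate 3 alone, the changes of Slc1a6, Slc38a3 and Slc36a2 shrank from -0.73, -0.89 and -0.68 to -0.53, -0.44 and -0.40.

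Slc7a11, the cystine and glutamate exchanger, stood furthest apart. Its probe (chromosome 3, 50169700 to 50169759, mm9) had levels of -3.25, -2.77 and -2.52 in knockdown cells, against -6.78, -6.68 and -6.80 in RAW264.7 control cells. It was well above background on every knockdown array and on no control array, and so entered the test through the knockdown arrays only. The measured difference was 3.91 ± 0.22 (SE, n = 3 per group, limma adjusted p = 1.67e-05). Because the control level is only a bound, the transcript was at least 6.08-fold higher in knockdown cells, with each control array entered at the lowest flagged signal it held wherever the probe was dimmer than that. Against control replicate 3 alone, the only control on the slide of the knockdown arrays, the difference was 3.96 (adjusted p = 0.000302 with slide as a block and 0.00202 on slide 2). The normexp correction, which pulls dim signals together, gave 1.96 (adjusted p = 0.000339).

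Slc7a8, a light chain for neutral amino acids (probe on chromosome 14, 55341137 to 55341196, mm9), had levels of 1.29, 1.22 and 1.08 in knockdown cells, against -0.53, -0.15 and -0.38 in RAW264.7 control cells. It rose by 1.55 ± 0.18 (SE, adjusted p = 0.00092), or 2.92-fold, and the groups did not overlap. Against control replicate 3 alone its change was 1.57 (adjusted p = 0.0133 with slide as a block and 0.00856 on slide 2). Slc7a7, the light chain that exports cationic amino acids in exchange for neutral ones (probe on chromosome 14, 54989166 to 54989225, mm9), had levels of 2.97, 2.97 and 2.83 in knockdown cells, against 1.86, 2.10 and 1.97 in control cells. It rose 1.93-fold, by 0.95 ± 0.17 (SE, adjusted p = 0.00793), with every knockdown array above every control array. Against control replicate 3 alone the change was also 0.95, with an adjusted p of 0.0839 with slide as a block and 0.0352 on slide 2. Slc7a8 and Slc7a7 stayed past the threshold when any 1 of the 6 arrays was left out, as did Slc7a11.

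The stretch before the start of these 3 genes is shown because they moved together (RefSeq, GRCm38.p6, 250 bases up to the start of the transcript, minus strand, 5′ to 3′). Capitals mark TGATGNAA, the core to which ATF4 dimers bind in amino acid response genes, on either strand.
Slc7a11 at chr3:50443614-50443863: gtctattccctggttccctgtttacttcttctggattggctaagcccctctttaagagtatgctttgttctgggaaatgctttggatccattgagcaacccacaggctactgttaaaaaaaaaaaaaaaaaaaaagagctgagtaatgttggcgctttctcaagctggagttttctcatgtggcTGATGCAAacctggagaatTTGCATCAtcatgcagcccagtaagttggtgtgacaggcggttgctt
Slc7a7 at chr14:54417945-54418194: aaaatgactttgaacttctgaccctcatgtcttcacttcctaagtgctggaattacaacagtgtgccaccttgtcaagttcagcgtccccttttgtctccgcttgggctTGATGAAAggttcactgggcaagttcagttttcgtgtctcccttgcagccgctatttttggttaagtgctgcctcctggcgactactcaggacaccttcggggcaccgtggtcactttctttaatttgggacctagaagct
Slc7a8 at chr14:54781887-54782136: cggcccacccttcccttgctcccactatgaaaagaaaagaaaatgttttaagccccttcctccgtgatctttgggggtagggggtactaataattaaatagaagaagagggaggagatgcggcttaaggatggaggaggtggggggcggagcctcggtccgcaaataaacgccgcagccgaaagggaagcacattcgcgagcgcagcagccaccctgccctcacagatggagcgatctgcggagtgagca
The Slc7a11 window held the core on both strands, beginning 66 and 47 bases before the start. Of 5 windows listed for Slc7a7, 2 held it and the other 3 did not. The one shown was picked because it did, once, 141 bases before the start. The Slc7a8 window did not hold these letters. Of all 32851 promoter windows, 3.45% held the core, and of the 42 windows of 31 transporters 3 did, those of Slc7a11 and Slc7a7. TGACNNNGC, the core of the antioxidant response element bound by NRF2, was searched on both strands too. It was in 10.2% of all windows and in 4 of the 42, 1 each of Slc38a2, Slc43a1, Slc7a1 and Slc7a6. These matches describe the letters only.

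Slc43a3, which carries purine nucleobases in human cells in spite of its family name (probe on chromosome 2, 84797987 to 84798046, mm9), had levels of 3.13, 3.27 and 3.05 in knockdown cells, against 2.55, 2.15 and 2.31 in RAW264.7 control cells. It rose 1.76-fold, by 0.82 ± 0.18 (SE, adjusted p = 0.0198), and the groups did not overlap. Against control replicate 3 alone the change was 0.84 (adjusted p = 0.156 with slide as a block and 0.0553 on slide 2). Its relative Slc43a2, a carrier of large neutral amino acids, had levels of 2.26, 1.96 and 1.36 in knockdown cells and 1.78, 1.92 and 2.09 in control cells (change -0.07, adjusted p = 0.844). Those ranges overlapped throughout.

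The 3 lower calls were small. Slc1a6, a glutamate carrier best known from Purkinje neurons, had levels of -2.70, -2.65 and -2.64 in knockdown cells, against -1.96, -1.71 and -2.13 in RAW264.7 control cells (change -0.73 ± 0.18, SE, adjusted p = 0.027). Slc38a3, a glutamine carrier, had levels of -5.83, -5.28 and -5.33 in knockdown cells, against -4.55, -4.17 and -5.04 in control cells (change -0.89 ± 0.26, SE, adjusted p = 0.044). Slc36a2, a proton-coupled carrier of small amino acids, had levels of -6.24, -6.25 and -6.26 in knockdown cells, against -5.38, -5.48 and -5.85 in control cells (change -0.68 ± 0.19, SE, adjusted p = 0.0367). In each case the control replicate on slide 2 was the lowest of the controls and so the nearest to the knockdown arrays. Slc36a2 was well above background on all knockdown arrays and only on that control array. Its levels on control replicates 1 and 2 lay below the lowest flagged signal of those arrays, -4.80, so no direction is given for it. With slide as a block the changes were -0.53, -0.44 and -0.40 for Slc1a6, Slc38a3 and Slc36a2, with adjusted p-values of 0.304, 0.456 and 0.395. Within slide 2 their adjusted p-values were 0.111, 0.283 and 0.165. Relative to the median change of all genes the 3 lay at -0.59 to -0.38, and after median centring Slc38a3 and Slc36a2 lost their calls (adjusted p = 0.0684 and 0.11). Against control replicate 3 alone, slide as a block made 2 of the 7 calls, Slc7a11 and Slc7a8, and slide 2 made these and Slc7a7. Leaving out any 1 knockdown replicate left 3 calls and leaving out control replicate 1 left 4, all of them higher.

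**Figure D1:**
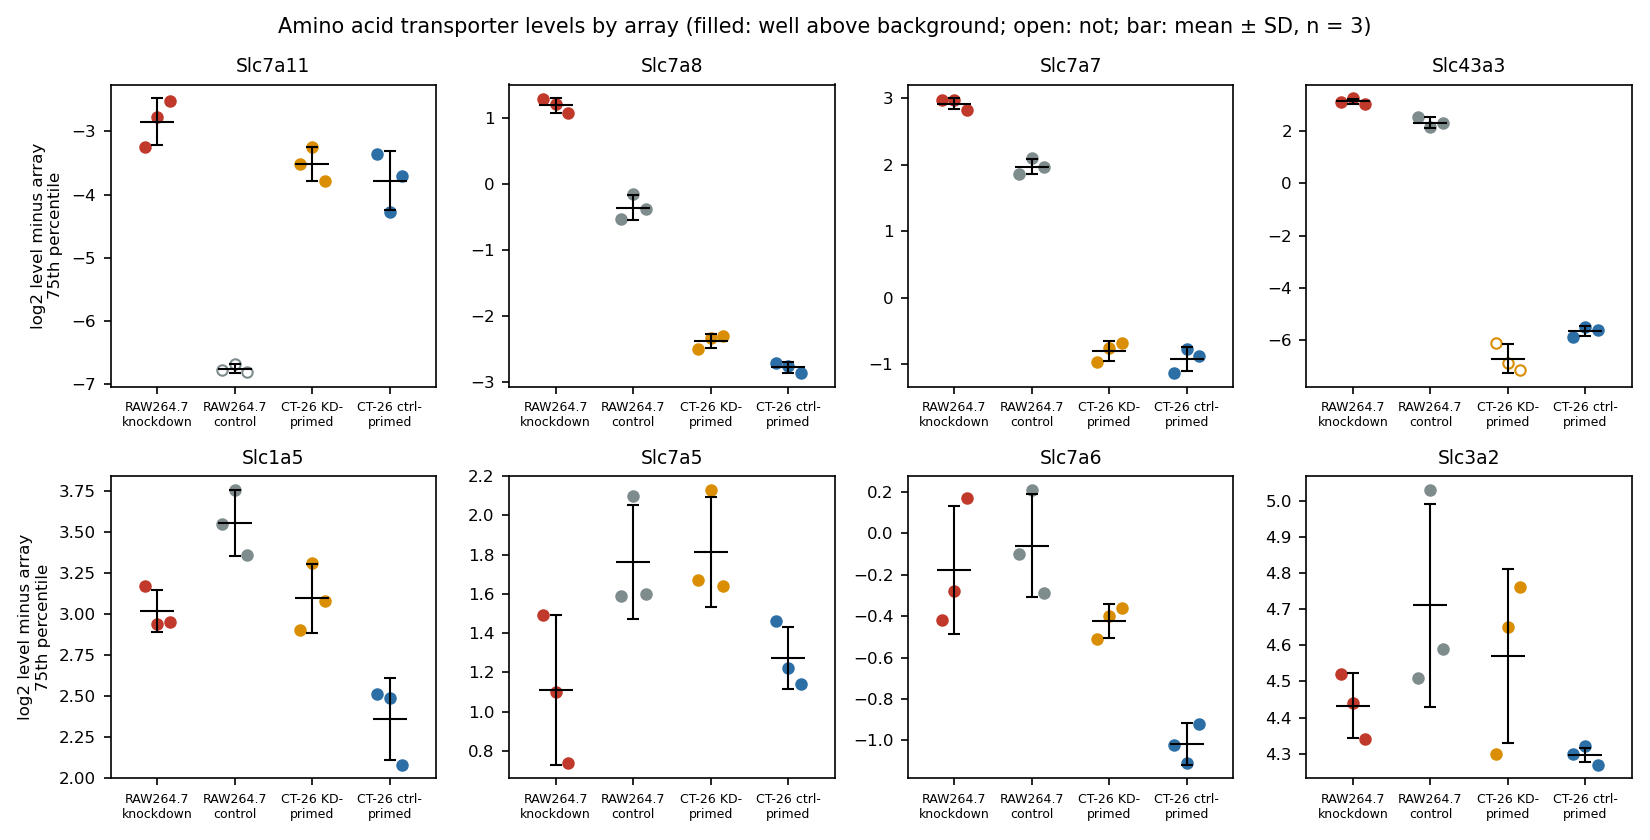
Levels of 8 transporters on each of the 12 arrays, as log2 signal relative to the array's 75th percentile, each panel with its own scale. Points are arrays, filled where well above background, and bars give the mean and SD of 3 arrays. Slc7a11 was at -3.25 to -2.52 in RAW264.7 knockdown cells and at -6.80 to -6.68 in control cells.

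Several well-known members did not pass the test in RAW264.7 cells. Slc3a2, the heavy chain that Slc7a11, Slc7a8 and Slc7a7 need, had levels of 4.52, 4.44 and 4.34 in knockdown cells and 4.51, 5.03 and 4.59 in control cells (change -0.28, 95% interval -0.73 to 0.17, adjusted p = 0.294). Knockdown and control values overlapped, and the change lay within 0.03 of the median of all genes. Slc7a5, the leucine carrier, had levels of 1.49, 1.10 and 0.74 in knockdown cells and 1.59, 2.10 and 1.60 in control cells (change -0.65, adjusted p = 0.0801). Slc1a5, the glutamine carrier, had levels of 3.17, 2.94 and 2.95 in knockdown cells and 3.55, 3.76 and 3.36 in control cells (change -0.54, adjusted p = 0.0647). For both genes every knockdown array lay below every control array, but neither difference passed the threshold. With slide as a block these differences were -0.49 for Slc7a5 (adjusted p = 0.46) and -0.34 for Slc1a5 (adjusted p = 0.475).

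Among the arginine carriers, Slc7a1 had levels of 3.23, 3.28 and 3.37 in knockdown cells and 3.27, 2.43 and 3.23 in RAW264.7 control cells (change 0.32, adjusted p = 0.332). Slc7a2, the carrier that activated macrophages are known to induce, had levels of -5.37, -5.11 and -4.92 in knockdown cells and -5.58, -4.91 and -5.97 in control cells (change 0.36, adjusted p = 0.341). Control replicate 2 was the lowest array for Slc7a1 and the highest for Slc7a2, and Slc7a1 did not separate the groups. Slc7a2 was well above background on all knockdown arrays but, among the controls, only on replicate 3. Its levels on control replicates 1 and 2 lay below the lowest flagged signal of those arrays, -4.80. Whether Slc7a2 separates the groups was therefore not measured. Against control replicate 3 alone the changes were 0.06 for Slc7a1 and 0.83 for Slc7a2. The glutamine and alanine carrier Slc38a1 had levels of 3.87, 3.64 and 3.59 in knockdown cells and 3.66, 3.94 and 3.70 in control cells (change -0.07, adjusted p = 0.786). Its relative Slc38a2, a carrier that amino acid starvation is known to induce, had levels of 2.71, 3.10 and 3.29 in knockdown cells and 2.50, 3.11 and 2.60 in control cells (change 0.29, adjusted p = 0.352). By role, the light chains held 3 higher calls among 5 tested (median change 0.95), and the Slc43 genes 1 among 2. The sodium-coupled Slc38 genes held 1 lower call among 7 (median change -0.21), and the Slc1 genes 1 among 3 and the proton-coupled Slc36 genes 1 among 4, both lower. These counts of 1 to 3 stand beside the 7.93% of all genes called higher and 14.9% called lower. With slide as a block the light chains held 2 calls and the Slc43, Slc38, Slc1 and Slc36 genes none by limma.

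**Figure D2:**
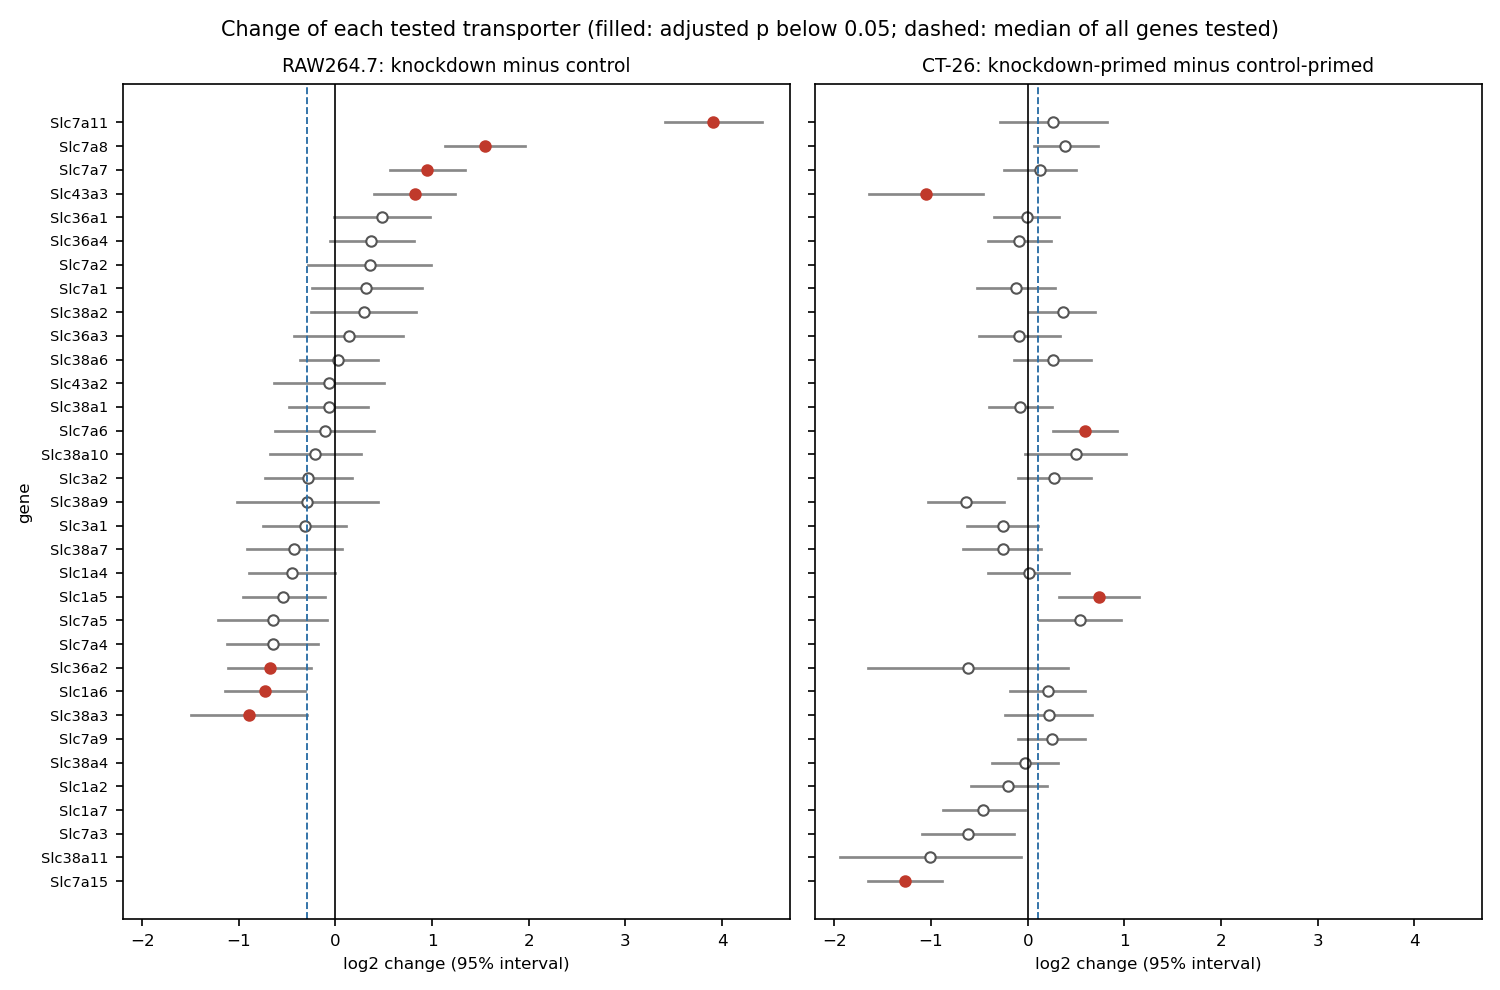
Log2 change with its 95% interval for each transporter tested, in RAW264.7 cells (knockdown minus control, left) and CT-26 cells (knockdown-primed minus control-primed, right). Filled points passed the threshold, the dashed line is the median of all genes tested, and a gene without a point was not tested in that line. Slc7a11 lies at 3.91 on the left and at 0.26 on the right.

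Genes that work with these carriers were counted in RAW264.7 cells from lists of pathway members, to be read against the 22.8% of all genes called. Of 23 amino acid response genes, 2 rose and 1 fell (13.0% called, median change -0.26). Cth, which makes cysteine from cystathionine, rose by 1.92 ± 0.27 (SE, adjusted p = 0.00226), and the stress factor Atf3 rose by 0.74 (adjusted p = 0.0322). Shmt2, of mitochondrial serine metabolism, changed by -0.66 (adjusted p = 0.0387). Slide as a block kept Cth and not Atf3 or Shmt2 (adjusted p = 0.347 and 0.335). The other 20 genes of this list of ATF4 targets, a group to which Slc7a11 is known to belong, did not pass the test. Of 12 glutathione genes tested, 2 were called higher and 1 lower (25.0%). Besides Cth, which is on both lists, the glutathione transferase Mgst1 was called higher. It was well above background on no control array and so entered the test through the knockdown arrays only. Its bound was at least 1.18-fold, and its limma adjusted p of 0.0186 (0.258 after normexp) belongs to the measured difference and not to that bound. Cbs, the enzyme before Cth, fell (SE 0.17, 95% interval -1.38 to -0.62, adjusted p = 0.00578). With slide as a block the changes of Cth and Cbs kept their direction.

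Of 18 genes of amino acid use, 3 rose and 3 fell in RAW264.7 knockdown cells (33.3%). The arginases Arg2, with 3.62 ± 0.19 (SE, adjusted p = 1.21e-05), and Arg1, with 4.85 ± 0.54 (SE, adjusted p = 0.000704), changed most. Arg1 was well above background on all 3 knockdown arrays and on 1 control array. The glutaminase Gls2 and the amino acid oxidase Il4i1 changed by -1.20 each (adjusted p = 0.00606 and 0.00755). These 4 calls were also made with slide as a block, and the other 2 of the list were not. Of 22 other amino acid carriers, 3 rose and 2 fell (22.7%), and not all of these calls were made with slide as a block. Among them the lysosomal histidine and peptide carrier Slc15a3 rose by 1.96 ± 0.19 (SE, adjusted p = 0.000347). The mitochondrial glutamate carrier Slc25a18 changed by -1.65 ± 0.22 (SE, adjusted p = 0.00201). Of 27 genes through which mTORC1 senses amino acids, 7.41% were called: Flcn rose by 0.94 (adjusted p = 0.0256) and Nprl2 changed by -0.73 (adjusted p = 0.0284). Of 20 tRNA synthetases, 3 fell (15.0%), with Vars at -0.91 (adjusted p = 0.0104). None of the calls in these last 2 lists was made by limma with slide as a block, where 3 mTORC1 genes and 4 synthetases had an unadjusted p below 0.05.

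In CT-26 cells, priming by ABHD5-knockdown rather than control macrophages went with small shifts of few transporters. Slc1a5 and the light chain Slc7a6 were higher in knockdown-primed cells. The tests of Slc7a15 and Slc43a3 were also past the threshold, but both entered them through the control-primed arrays only, and normexp turned their sign. Of 30 transporters tested, 4 were called (13.3%), against 6.32% of all 24824 genes, with 3.14% called higher and 3.17% lower. The transporters' median change was -0.02, and that of all genes was 0.108. Median centring called 2 higher and 1 lower, and normexp called 2 higher and no lower one.

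Slc1a5 had levels of 2.90, 3.31 and 3.08 in knockdown-primed cells, against 2.51, 2.49 and 2.08 in control-primed cells. It rose 1.67-fold, by 0.74 ± 0.19 (SE, adjusted p = 0.0493), and the groups did not overlap. Slc7a6, which like Slc7a7 exchanges cationic for neutral amino acids, had levels of -0.51, -0.40 and -0.36 in knockdown-primed cells, against -1.02, -1.11 and -0.92 in control-primed cells. It rose 1.51-fold, by 0.59 ± 0.15 (SE, adjusted p = 0.0474), again with no overlap. Slc7a5 had levels of 1.67, 2.13 and 1.64 in knockdown-primed cells and 1.46, 1.22 and 1.14 in control-primed cells (change 0.54, 95% interval 0.12 to 0.96, adjusted p = 0.0981). Its arrays separated by group in the same direction as those of Slc1a5, without passing the threshold.

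Slc7a15, a mouse light chain, had levels of -7.09, -6.69 and -6.77 in knockdown-primed cells, against -5.72, -5.50 and -5.51 in control-primed cells (difference -1.27 ± 0.17, SE, adjusted p = 0.00885). Slc43a3 had levels of -6.11, -6.91 and -7.17 in knockdown-primed cells, against -5.89, -5.52 and -5.62 in control-primed cells (difference -1.05 ± 0.26, SE, adjusted p = 0.0476). Both were well above background on all control-primed arrays and on no knockdown-primed array. They were tested only because the control-primed arrays passed the filter, so these differences are no measure of a fall. After normexp they were 0.14 and 0.06, and no direction is given for either gene. The knockdown-primed arrays also had fewer spots well above background, and the part of this in both results was not tested.

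Macrophage transcripts were looked at beside Slc43a3, which is far brighter in RAW264.7 cells. Of the 15 macrophage markers, 10 were well above background on all 3 knockdown-primed arrays and 11 on all 3 control-primed arrays. On a linear scale, where 1 is the array's 75th percentile, their summed level was 57.5 to 75.3 in knockdown-primed and 55.4 to 61.1 in control-primed CT-26 cells, against 330 to 372 in RAW264.7 knockdown and 300 to 339 in RAW264.7 control cells. In CT-26 cells that sum was mostly 1 probe of Itgam, an integrin chain, at levels of 5.56, 5.66 and 6.07 in knockdown-primed and 5.51, 5.67 and 5.61 in control-primed cells. The other 2 Itgam probes had mean levels of -4.95 and -4.13 in knockdown-primed and of -4.92 and -4.14 in control-primed cells. Without Itgam, as looked at after seeing the data, the sum was 7.90 to 10.4 in knockdown-primed and 9.47 to 10.3 in control-primed cells, against medians of 281 in RAW264.7 knockdown and 241 in RAW264.7 control cells. A sum weights markers by probe brightness, so it gives no share of macrophage RNA. Spi1 and Cybb were well above background on no CT-26 array, and Adgre1, Tyrobp and Laptm5 on no knockdown-primed array. Cd68 fell by 0.83 on the log2 scale in knockdown-primed cells (adjusted p = 0.0206). It was the 1 call among 11 macrophage markers tested there (9.09%, against 6.32% of all genes). The median change of these markers was 0.05. The part of these transcripts in the Slc43a3 result was not tested. In such bulk RNA, fewer cells of a type and less RNA per cell cannot be told apart.

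The other members named above passed no test in CT-26 cells, and Slc7a2, well above background on no CT-26 array, was not tested there. Slc7a11 had levels of -3.52, -3.24 and -3.79 in knockdown-primed cells and -3.36, -4.28 and -3.70 in control-primed cells (change 0.26, 95% interval -0.29 to 0.82, adjusted p = 0.486). It was well above background on all 6 arrays, and the groups overlapped. Slc3a2 had levels of 4.30, 4.65 and 4.76 in knockdown-primed cells and 4.30, 4.32 and 4.27 in control-primed cells (change 0.27, adjusted p = 0.294). Slc7a1 had levels of 2.49, 2.52 and 2.24 in knockdown-primed cells and 2.30, 2.79 and 2.51 in control-primed cells (change -0.12, adjusted p = 0.674). Both Slc3a2 and Slc7a1 overlapped between the groups. Slc38a2 had levels of 3.62, 3.90 and 3.73 in knockdown-primed cells and 3.47, 3.27 and 3.44 in control-primed cells (change 0.36, adjusted p = 0.16). Slc38a1 had levels of -1.71, -1.73 and -1.76 in knockdown-primed cells and -1.61, -1.78 and -1.59 in control-primed cells (change -0.08, adjusted p = 0.744). The lysosomal arginine sensor Slc38a9 had levels of -3.38, -3.05 and -3.44 in knockdown-primed cells and -2.69, -2.80 and -2.46 in control-primed cells (change -0.64, adjusted p = 0.0601). Slc38a2 and, on the probe shown, Slc38a9 separated the groups without passing the threshold. The other probes of Slc38a9 changed by -0.50 and 0.03 in CT-26 cells. Of the pathway lists, Cth again rose, by 0.92 ± 0.14 (SE, adjusted p = 0.0146), the only call among 23 amino acid response genes and among 13 glutathione genes; its probe had the flag on 2 of 3 knockdown-primed arrays and on all 3 control-primed ones. No call was made by limma among 26 mTORC1 genes, 17 genes of amino acid use, 17 other carriers and 20 synthetases, of which 10, 1, 2 and 3 had an unadjusted p below 0.05. Of all 24824 genes, 6.32% were called, and 7424 had an unadjusted p below 0.05.

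Slc1a5, Slc7a6 and Slc43a3 lay close to the threshold, and each was called in 1 of the 6 fits that leave out a replicate, Slc7a15 in 5 of them. Leaving out control-primed replicate 3 left no call by limma (6 transporters had an unadjusted p below 0.05 without it). Of all 24823 genes tested without that replicate, 92 were called and 4595 had an unadjusted p below 0.05. Leaving out control-primed replicate 1 or 2, or knockdown-primed replicate 2 or 3, left 1 call each, and leaving out knockdown-primed replicate 1 gave 5.

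Whether the change in RAW264.7 cells differed from that in CT-26 cells was tested as an interaction over all 12 arrays. Of 33 transporters, 9 were called (27.3%), 4 higher and 5 lower, against 31.4% of all 26887 genes (7.43% higher, 24% lower). Slc7a11 differed by 3.64 ± 0.36 (SE, adjusted p = 5.33e-05), Slc43a3 by 1.87 ± 0.34 (SE, adjusted p = 0.00374) and Slc7a8 by 1.15 ± 0.21 (SE, adjusted p = 0.0039), each with the more positive change in RAW264.7 cells. The first 2 involve a group in which the probe was well above background on no array, RAW264.7 control cells for Slc7a11 and knockdown-primed cells for Slc43a3, so these sizes are not measured on both sides. After normexp they were 1.64 and 0.72 (adjusted p = 0.0027 and 0.0283). Slc7a7 differed by 0.82 (adjusted p = 0.018). In the other direction, Slc1a5 differed by -1.27 ± 0.26 (SE, adjusted p = 0.00591) and Slc7a5 by -1.19 ± 0.32 (SE, adjusted p = 0.0187), with the more negative change in RAW264.7 cells. Slc1a6, Slc7a4 and Slc38a3 differed by -0.94, -1.12 and -1.12 (adjusted p = 0.0142, 0.0227 and 0.033). Slc7a4 was well above background on no knockdown-primed and on 2 control-primed arrays, and its result rests on 1 of its 2 probes. The median difference over all genes was -0.392, and relative to it those 5 lay at -0.88 to -0.54. The 4 higher and 5 lower calls became 5 and 4 after median centring, and 4 and 9 after normexp. Slide as a block within the RAW264.7 arrays, an alternative chosen after seeing the data, kept Slc7a11, Slc43a3 and Slc7a8. It also called Slc1a2, whose probe was well above background on no RAW264.7 array, so no change there was measured.

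Many carriers differed in transcript level between the 2 cell lines, though at a share below that of all genes. The comparison of RAW264.7 control with CT-26 control-primed cells gives the members' levels in each line, and cell line, slide and priming cannot be told apart in it. Of 32 transporters tested, 21 were called (65.6%), 12 higher and 9 lower in RAW264.7 control cells, against 72.1% of all 25412 genes (45.8% higher, 26.4% lower). The transporters' median difference was 0.43 and that of all genes 0.407, which quantile normalisation reduced to 0.168.

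Among the carriers higher in RAW264.7 cells, Slc43a2 had levels of 1.78, 1.92 and 2.09 in RAW264.7 control cells, against -6.69, -6.08 and -6.57 in CT-26 control-primed cells, where 1 of 3 arrays was well above background (difference 8.37, adjusted p = 1.2e-10; 6.78 after normexp). Slc43a3, given above, differed by 8.01 (adjusted p = 2.08e-11). Slc38a1 differed by 5.43, or 43.0-fold (adjusted p = 8.58e-12), on its brightest probe. Its other probes differed by 6.95, where no CT-26 array was well above background, and by 2.11, so the size depends on the probe. Slc7a4, a cationic family member of unsettled transport function, had levels of -0.58, -0.03 and -0.53 in RAW264.7 control cells, against -6.55, -5.91 and -5.97 in CT-26 control-primed cells, where 2 of 3 arrays were well above background (difference 5.76, adjusted p = 2.03e-10; 4.36 after normexp). The other Slc7a4 probe was well above background on no RAW264.7 array, so this difference rests on 1 of its 2 probes. The light chains Slc7a7 and Slc7a8 were 7.46-fold and 5.35-fold higher in RAW264.7 control cells (differences of 2.90 and 2.42, adjusted p = 4.54e-09 and 1.97e-08). Both of these light chains, which rose on knockdown, were thus also higher in the macrophage line than in CT-26 cells. The proton-coupled Slc36a3 had levels of 0.66, 0.03 and -0.24 in RAW264.7 control cells, against -2.90, -3.02 and -3.10 in CT-26 control-primed cells (difference 3.16, adjusted p = 7.35e-08). Slc36a4 had levels of -0.63, -1.12 and -0.94, against -3.18, -3.33 and -3.31 in CT-26 control-primed cells (difference 2.38, adjusted p = 3.21e-08). The other probes of Slc36a3 and Slc36a4 gave smaller differences, 1.67 and 1.11.

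On the other side stood carriers that RAW264.7 control arrays did not measure well above background. Slc1a2, Slc38a4, Slc1a7, Slc7a9, Slc7a3 and Slc7a11 entered the test through the CT-26 control-primed arrays only. Their adjusted p-values belong to the measured differences from background signal and not to the bounds given here. The brightest probe of Slc1a2, a glutamate carrier of astrocytes, had levels of -6.88, -6.70 and -8.05 in RAW264.7 control cells, against 0.43, 0.92 and 0.47 in CT-26 control-primed cells (at least 66.5-fold lower in RAW264.7 control cells, adjusted p = 2.7e-10). Slc38a4, a neutral carrier best known from liver and placenta, had levels of -7.06, -6.77 and -8.96, against -1.09, -0.92 and -0.81 in CT-26 control-primed cells (at least 22.8-fold lower, adjusted p = 2.34e-08). Slc1a7, a glutamate carrier of the retina, had levels of -6.41, -6.35 and -6.99, against -2.09, -2.21 and -2.14 in CT-26 control-primed cells (at least 9.87-fold lower, adjusted p = 8.39e-09). All 3 were well above background on all 6 CT-26 arrays. Slc7a9, the light chain of the kidney and gut cystine carrier, was at least 14.6-fold lower in RAW264.7 control cells (adjusted p = 3.3e-07). Its heavy chain Slc3a1 was also lower, by a difference of -0.82 (adjusted p = 0.000889). Slc7a3 was at least 3.13-fold and Slc7a11 at least 3.18-fold lower in RAW264.7 control cells (adjusted p = 9.73e-05 and 3.62e-07). Thus Slc7a11 was above background in CT-26 cells under both kinds of priming, and in RAW264.7 cells only after knockdown. The levels of Slc1a4, Slc7a1 and Slc7a5 did not pass the test between the lines (differences of 0.23, 0.44 and 0.49, adjusted p = 0.287, 0.0898 and 0.068). Slc3a2 differed by 0.41 (adjusted p = 0.0511), and by -0.33 after quantile normalisation (adjusted p = 0.0353), so its direction depends on the scaling.

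**Figure D3:**
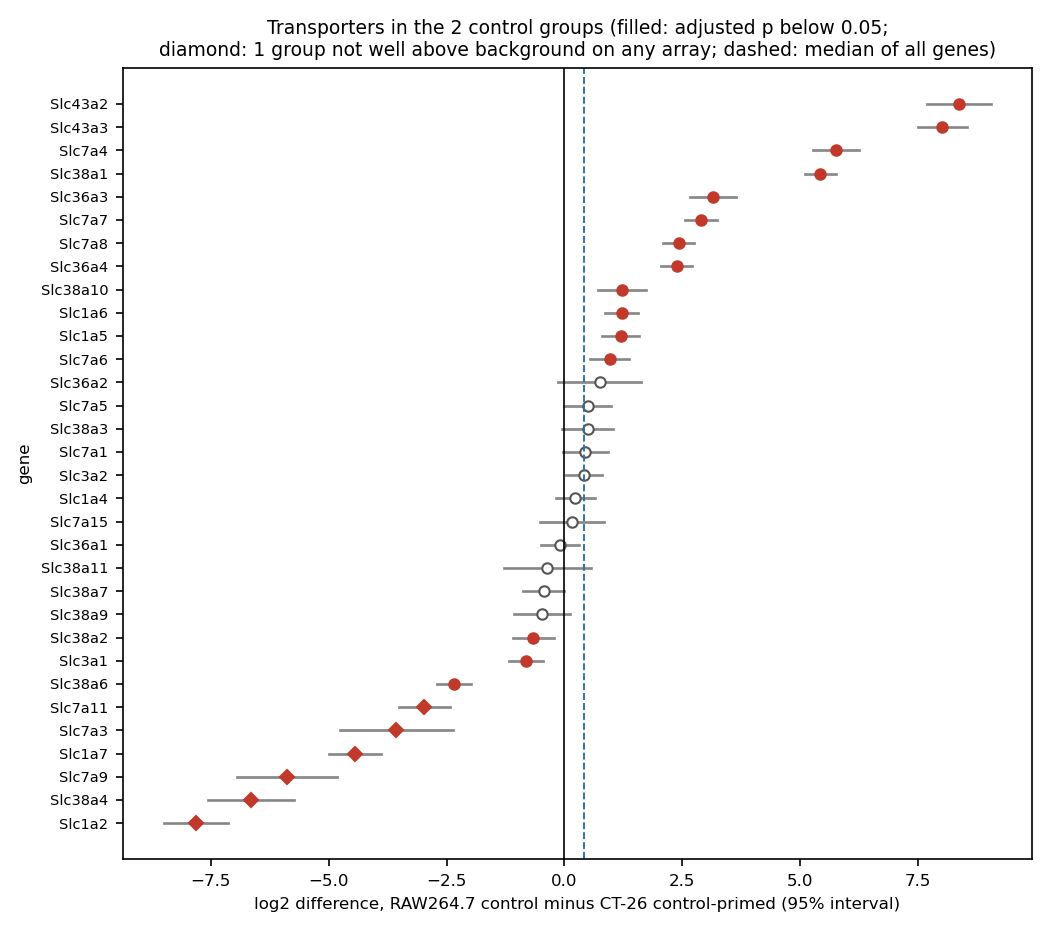
Log2 difference, RAW264.7 control minus CT-26 control-primed, with its 95% interval, for the 32 transporters tested. Filled points passed the threshold, diamonds mark genes well above background on no array of 1 group, whose true difference is only bounded, and the dashed line is the median of all genes. Slc43a2 lies at 8.37 and Slc1a2 at -7.81.

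Different probes of a gene did not always move alike. The other probe of Slc1a5 had levels of 3.09, 2.90 and 2.74 in RAW264.7 knockdown cells and 2.97, 2.67 and 3.12 in control cells (change -0.01, adjusted p = 0.973 over all probes). In CT-26 cells its change was 0.19 (adjusted p = 0.576), and its difference between the lines' changes was -0.20 (adjusted p = 0.64). The Slc1a5 results above therefore rest on 1 of its 2 probes. The other probe of Slc7a5 had levels of -1.13, -1.17 and -1.25 in RAW264.7 knockdown cells, against -0.19, 0.02 and -0.73 in control cells (change -0.89, adjusted p = 0.0307). Its difference between the lines' changes was -1.55 (adjusted p = 0.016), so both Slc7a5 probes gave the same direction. On that other probe, control replicate 3, at -0.73 and the only control on the slide of the knockdown arrays, was the nearest to them. The lysosomal proton-coupled carrier Slc36a1 had levels of -0.54, -0.55 and -0.45 in knockdown cells and -1.13, -0.56 and -1.27 in RAW264.7 control cells on its brighter probe (change 0.48, adjusted p = 0.126). Its other probe had levels of -3.51, -3.49 and -3.34 in knockdown cells, against -4.65, -4.98 and -4.14 in control cells, where 1 of 3 was well above background (change 1.15, adjusted p = 0.0148).

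Slc38a6, a relative of the glutamine carriers, gave opposite answers between the lines. Its brighter probe had levels of 1.77, 2.03 and 1.67 in RAW264.7 control cells, against 4.26, 4.18 and 4.06 in CT-26 control-primed cells (difference -2.34, adjusted p = 8.08e-08). Its other probe had levels of 0.92, 1.34 and 0.63 in RAW264.7 control cells, against -1.06, -1.59 and -1.58 in CT-26 control-primed cells (difference 2.38, adjusted p = 9.34e-07 over all probes). No line can be called the higher one for this gene. The 3 probes of Slc38a9 differed as well, at -0.48, 1.23 and -1.11 between the lines. Of the 3 Slc1a2 probes, 2 were lower in RAW264.7 control cells, where neither was well above background (adjusted p = 5.84e-10 and 3.12e-05 over all probes), and the third did not pass the test (adjusted p = 0.251). Where the probes lie in their transcripts was not analysed here.

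**Figure D4:**
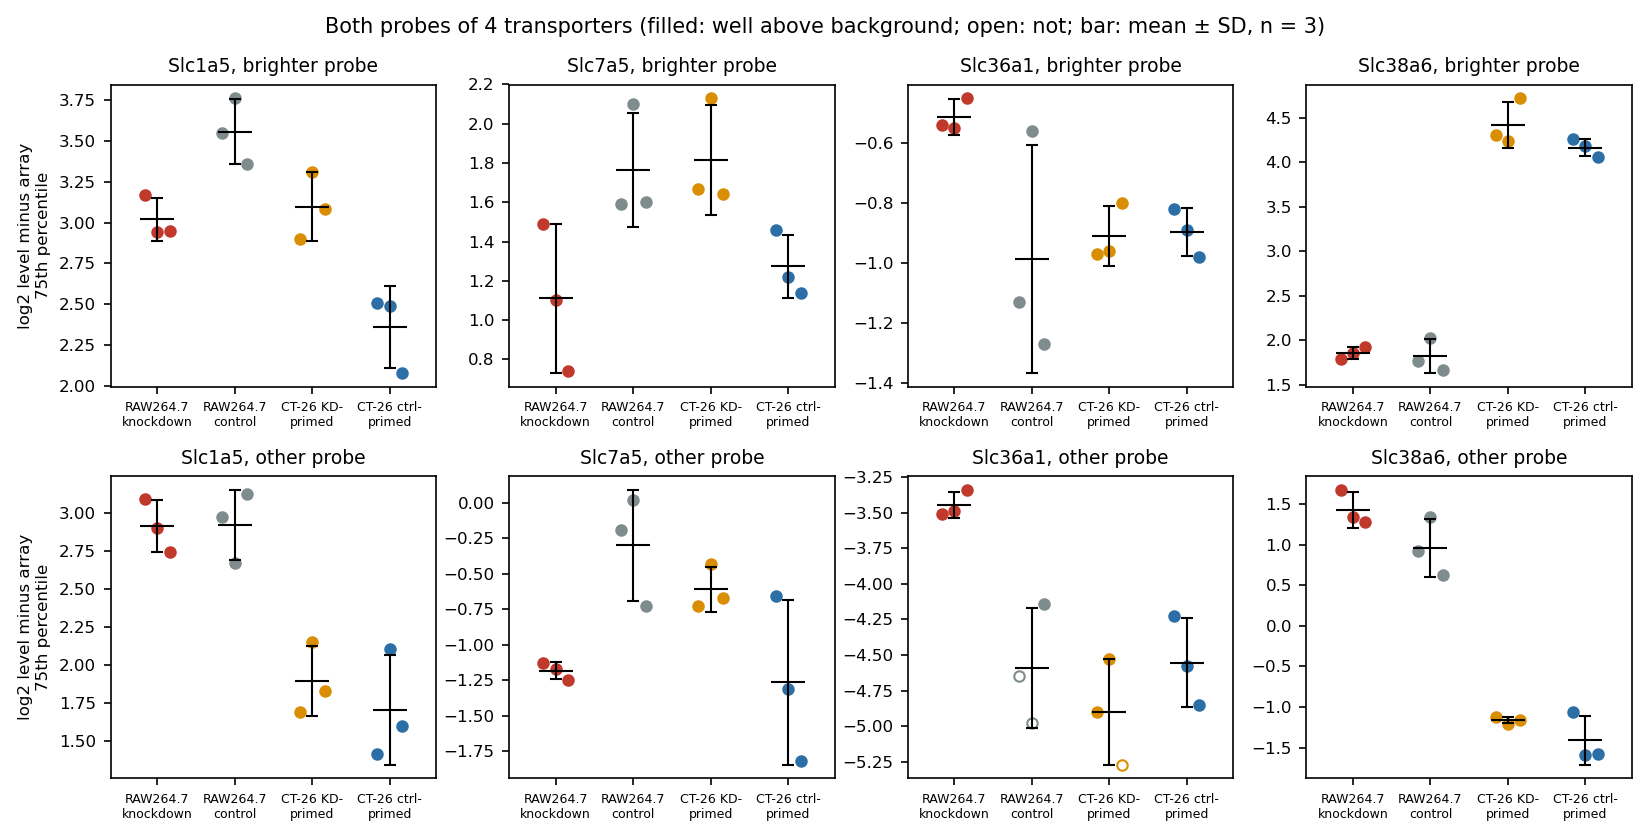
Levels on each array for both probes of Slc1a5, Slc7a5, Slc36a1 and Slc38a6 (upper row the brighter probe, lower row the other), as log2 signal relative to the array's 75th percentile, each panel with its own scale. Points are arrays, filled where well above background, and bars give the mean and SD of 3 arrays. The Slc38a6 probes order the cell lines in opposite ways, at 4.06 to 4.26 and at -1.59 to -1.06 in CT-26 control-primed cells.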

How the data were processed

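Per the labels' protocols, RNA came from a TRIzol extraction and was linearly amplified with a Cy3 label. Agilent Feature Extraction 10.7.3.1 made the scanner files, per the file headers. As deposited, these hold each spot's intensity on a linear scale, with background corrected within the array. Control spots and outlier spots (172 to 272 an array) were removed; saturation was flagged for none. From the processed signal, log2 values were taken, set to 0 at the 75th percentile of the array, and averaged over spots of a probe. Probe positions are those of the files (mm9). RefSeq accessions named 56 of the 59 transporter probes, with no change of symbol. A gene was represented by its brightest probe over all 12 arrays, among probes flagged on every array of some group.

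Comparisons were two-sided and used lmFit and eBayes of limma 3.58.1 (R 4.3.3) on all tested genes, within each cell line for the main changes and over all 12 arrays for the interaction and the control groups; the script was tested on simulated data. The number of arrays limits the precision. The members and lists were chosen with earlier results of these data known. Per-array values are given for up to 12 called members with the smallest p per comparison, for Slc7a11, Slc3a2, Slc7a5, Slc1a5, Slc7a1, Slc7a2, Slc38a1 and Slc38a2 in any case, and for Slc43a2, Slc38a9 and the probe pairs, picked after their values were seen; from other lists, up to 4 genes were eligible. Alternatives were median centring, quantile normalisation, normexp (offset 50), no filter on dim probes, every probe by itself, the mean of a gene's probes, replicates left out, replicate number or slide as a block, slide 2 only, and the authors' deposited table. That table states no scale. Set against the scanner signals, its 6 RAW264.7 columns held log2 values as deposited by the authors, made by subtracting the array's 75th percentile (medians -4.02, -3.94 and -3.93 in knockdown, -3.81, -3.53 and -3.90 in control cells). Its CT-26 columns held linear intensity (medians 226.1, 131.7 and 174 in knockdown-primed, 272.6, 276 and 274.4 in control-primed cells), of which 1 matched its own array and 5 another replicate of the same group. Same-numbered replicates did not deviate together: the correlations of their deviations were -0.0125, 0.0106 and -0.0789 in RAW264.7 and -0.0987, -0.166 and -0.0254 in CT-26 cells, so the numbers were not taken as pairs.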

Additional observations from a re-analysis of the deposited data

Results flagged for a closer look

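For 9 transporters the change in RAW264.7 cells differed from the change in CT-26 cells by the interaction test, and each is set beside its changes where these were tested. Slc7a11 differed by 3.64 on the log2 scale, with a change of 3.91 in RAW264.7 cells, where no control array was well above background, and 0.26 in CT-26 cells. Slc43a3 differed by 1.87, with 0.82 in RAW264.7 and -1.05 in CT-26 cells, and in CT-26 cells no knockdown-primed array was well above background. After normexp these 2 differences were 1.64 and 0.72. Slc7a8 differed by 1.15, with 1.55 in RAW264.7 and 0.39 in CT-26 cells. With slide as a block these 3 differences were 3.69, 1.89 and 1.18 (limma adjusted p = 0.000541, 0.0226 and 0.023). Slc7a7 differed by 0.82, with 0.95 in RAW264.7 and 0.13 in CT-26 cells (0.83 with slide as a block, adjusted p = 0.083). Slc1a5 differed by -1.27, with -0.54 in RAW264.7 and 0.74 in CT-26 cells, on 1 of its 2 probes. Slc7a5 differed by -1.19, with -0.65 in RAW264.7 and 0.54 in CT-26 cells, on both probes. Slc1a6 differed by -0.94, with -0.73 in RAW264.7 and 0.21 in CT-26 cells. Slc38a3 differed by -1.12, with -0.89 in RAW264.7 and 0.22 in CT-26 cells. Slc7a4 differed by -1.12 and changed by -0.65 in RAW264.7 cells (adjusted p = 0.053), on 1 of its 2 probes. It was not tested in CT-26 cells, where it was well above background on no knockdown-primed and on 2 control-primed arrays, so its difference rests partly on background signal. With slide as a block the differences of Slc1a5, Slc7a5, Slc1a6, Slc38a3 and Slc7a4 were -1.08, -1.03, -0.74, -0.66 and -0.97, and their adjusted p-values lay at 0.0525, 0.117, 0.111, 0.256 and 0.131.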

How the results depend on the processing

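In RAW264.7 cells the count of 7 called transporters became 3 without the filter on dim probes, 2 with slide as a block and 3 within slide 2 alone, and it lay between 3 and 9 when 1 replicate was left out. The other settings gave 5 to 10. The change of Abhd5 was -1.23 with slide as a block (adjusted p = 0.0554). In CT-26 cells the count of 4 became 2 with quantile normalisation, 2 with normexp, 1 with every probe tested by itself, 2 with the authors' deposited table and 1 with a replicate block. It lay between 0 and 5 when 1 replicate was left out. Without the filter it was 0 by limma, with 16 of 42 transporters at an unadjusted p below 0.05. Of all 34787 genes in that setting, 40 were called and 10864 had an unadjusted p below 0.05. The directions of Slc43a3 and Slc7a15 in CT-26 cells turned with normexp, to 0.06 and 0.14, and that of Slc3a2 between the cell lines turned with quantile normalisation, to -0.33. The causes of these changes were not tested. The 9 called differences between the lines became 15 without the filter and 4 with slide as a block, which was added after seeing the data. The 21 calls between the cell lines stayed at 21 to 26 under every setting run and held all 21 genes. The replicate block gave 6 calls in RAW264.7 cells and 8 differences between the lines; the numbers only share a label, since same-numbered samples did not deviate together. Signals near background, such as those of Slc7a15, Slc36a2 and Slc43a3 in CT-26 cells, limit what these arrays can show.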
